A study of Mus musculus with 8 samples.

Results

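Ferroptosis is a form of cell death in which iron drives the peroxidation of polyunsaturated phospholipids, and 10 genes that restrain or feed it were compared between iron positive and iron negative cells of a mouse tumor. They were taken by name from the 35975 genes that the matched transcripts define, and all 10 were among the 13343 genes with enough counts to test. Ordered by role, Gpx4, Chac1 and Slc3a2 belong to the glutathione-dependent arm, and Aifm2, Gch1 and Dhodh to pathways that quench lipid radicals without glutathione. Acsl4 and Lpcat3 load polyunsaturated fatty acids into phospholipids, Acsl3 activates monounsaturated fatty acids, and Sat1 breaks down polyamines.

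The iron positive group held 4 libraries from cells retained by magnetic columns, and the iron negative group held 4 libraries from cells that flowed through. Both came from syngeneic fibrosarcomas implanted under the skin of WT C57BL/6 mice, and the labels give no further treatment. The tumors were digested with collagenase B and DNase I, red cells were lysed, and total RNA was sequenced in bulk, with 19.04 to 24.31 M estimated counts per library. Each of the tags 3L, 3R, 4R and 5L occurred once per fraction, and the libraries of a tag were treated as a pair where the text says so. Whether the tags stand for separate animals is not said in the labels, so a p-value here measures only the spread among these libraries, which may be technical.

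The series title names macrophages, and all 17 macrophage markers examined were detected, with summed levels of 26930 to 35210 CPM (counts scaled to the TMM-adjusted library size) in iron positive and 35840 to 38710 CPM in iron negative libraries. The labels name no antibody sort, and markers of other cells were present as well. The 12 endothelial markers summed to 232.0 to 1738 CPM in iron positive and 70.09 to 117.7 CPM in iron negative libraries, and the 11 fibroblast and fibrosarcoma markers to 504.6 to 4777 CPM in iron positive and 133.0 to 401.8 CPM in iron negative libraries. In the edgeR test described below (adjusted p under 0.05), 0 of the 17 macrophage markers were called higher and 7 lower. Called higher were 12 of 12 endothelial, 6 of 10 fibroblast, 8 of 10 pericyte and smooth muscle and 6 of 7 skeletal muscle markers tested. Of these lists 0 markers were called lower. Of the T and NK cell markers 0 of 5 tested were called higher and 1 lower. Of the B cell markers 0 of 3 tested were called higher and 1 lower. Of all genes 8.49% were called higher and 5.21% lower. Iron positive 3R had the highest endothelial and fibroblast sums and the lowest macrophage sum of the 8 libraries. In bulk RNA, fewer cells of a type and less RNA per cell cannot be told apart.

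As background, GPX4 reduces phospholipid hydroperoxides with glutathione, and glutathione synthesis depends on cystine that enters through a transporter in which SLC3A2 is the heavy chain. AIFM2, also called FSP1, reduces ubiquinone at the plasma membrane, DHODH reduces it in mitochondria, and GCH1 starts the synthesis of tetrahydrobiopterin. Macrophages that clear red cells handle large amounts of heme iron, and iron is what drives the peroxidation that these genes control.

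GPX4 is a selenoprotein: its active-site selenocysteine is encoded by TGA, a codon that otherwise ends translation. The 27 bases around that codon are shown for Gpx4 and for the related selenoprotein genes discussed with it, read from the coding sequences of GENCODE release 21 on GRCm38, with the TGA in capitals.
Gpx4-202: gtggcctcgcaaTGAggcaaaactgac
Gpx1-201: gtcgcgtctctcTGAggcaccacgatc
Gpx3-201: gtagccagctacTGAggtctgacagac
Txnrd1-201: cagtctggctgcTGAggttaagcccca
The codon is number 73 of Gpx4-202 (chr10:80054737-80054739, plus strand), 47 of Gpx1-201 (chr9:108339451-108339453, plus strand), 73 of Gpx3-201 (chr11:54907256-54907258, plus strand) and 498 of Txnrd1-201 (chr10:82896037-82896039, plus strand). In the thioredoxin reductase it is the penultimate codon, and in the peroxidases it lies in the interior of the protein.

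None of the 10 genes passed the test between the fractions (quasi-likelihood F-test of edgeR, with an adjusted p under 0.05 by Benjamini-Hochberg over all 13343 genes), whereas 8.49% of all genes tested were called higher and 5.21% lower in iron positive libraries. At an unadjusted p under 0.05, 2 of the 10, Gpx4 and Aifm2, were higher and 0 were lower, beside 17.1% and 14% of all genes, so the count of 2 is near the background. DESeq2 also called 2 higher and 0 lower by adjusted p, beside 12.8% and 8.02% of all genes. The median log2 fold change of the 10 was 0.005 (range -0.23 to 0.68), beside -0.006 for all genes tested, and their median absolute log2 fold change was 0.14 beside 0.17. For 8 of the 10 the 95% interval of the log2 fold change lay within 1 unit either side of 0, and for 7 it lay within 0.5.

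The genes spanned a wide range of levels. In TPM, the measure scaled for transcript length that allows genes to be compared, Sat1 was highest with a mean of 1312 over the 8 libraries, followed by Slc3a2 with 354.3 and Gpx4 with 330.0. Lpcat3 (30.8 TPM), Acsl4 (19.8 TPM), Dhodh (14.7 TPM), Gch1 (13.1 TPM), Aifm2 (11.3 TPM) and Acsl3 (7.67 TPM) lay far below, and Chac1 was lowest at 1.47 TPM. Slc3a2 and Gpx4 differed by less than the SD of Slc3a2, which was 57.3 TPM in iron positive and 46.7 TPM in iron negative libraries. From Dhodh down to Acsl3, neighbours in this order also differed by less than the larger SD of either gene in a fraction.

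**Figure D1:**
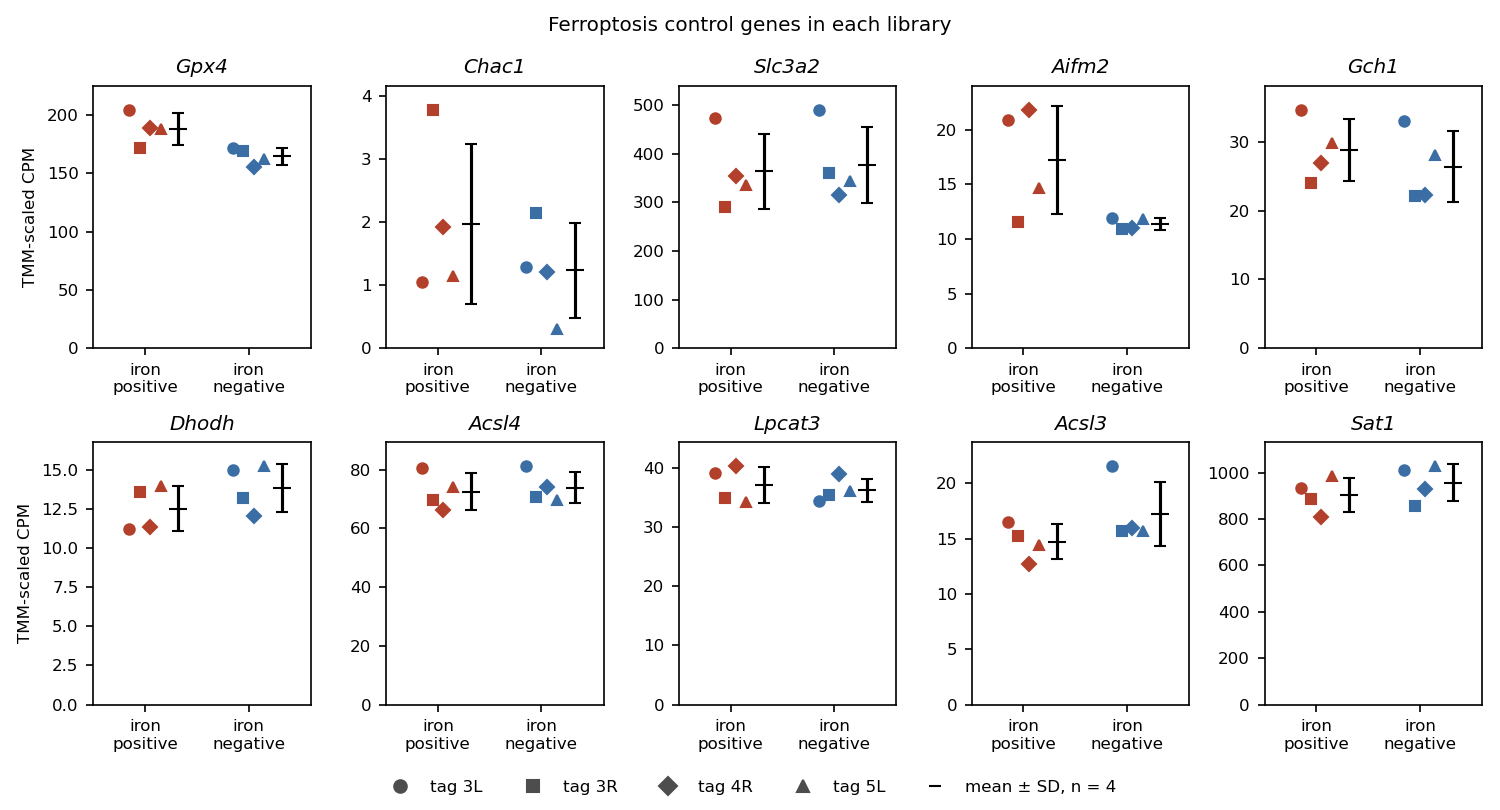
Level of each gene in each library in TMM-scaled CPM, with iron positive libraries (red) left of iron negative libraries (blue), marker shapes for tags, and the mean ± SD of 4 libraries beside them. In every panel at least 1 library of a fraction lies within the range of the other fraction.

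Gpx4 (chr10:80047166-80056439, GRCm38, plus strand), the peroxidase at the centre of the pathway, had 204.5, 171.5, 188.6 and 187.8 CPM in iron positive 3L, 3R, 4R and 5L, against 171.6, 168.8, 155.3 and 162.3 CPM in iron negative libraries of the same tags. It was higher in iron positive libraries in 4 of 4 pairs, by 0.02 log2 units at tag 3R and by 0.21 to 0.28 at the others, and the groups touched only where iron positive 3R met iron negative 3L. The means were 188.1 ± 13.5 CPM in iron positive and 164.5 ± 7.25 CPM in iron negative libraries (SD, n = 4 each). Its log2 fold change of 0.19 ± 0.07 (SE) did not pass (edgeR adjusted p = 0.0867), and with the tag as a block it was 0.19 (adjusted p = 0.0670).

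In TPM the groups of Gpx4 stood apart. It had 376.7, 326.7, 376.3 and 360.5 TPM in iron positive libraries and 293.7, 309.9, 290.5 and 305.7 TPM in iron negative ones. Of the ferroptosis genes compared, only Gpx4 had no overlap in TPM. The share of all genes without overlap in TPM was not computed, so this has no background beside it. In CPM, 11.2% of all genes tested were higher without overlap. Gpx4 lay near the threshold under several settings. It passed with library totals in place of TMM (edgeR adjusted p = 0.0261), with DESeq2 (adjusted p = 0.0382), on log2(TPM + 0.1) values (limma adjusted p = 0.0443) and without iron positive 3R (edgeR adjusted p = 0.0486). It did not pass on log2(TPM + 1) values (limma adjusted p = 0.0507) or with relative log expression scaling (edgeR adjusted p = 0.0892). Farther from the threshold were limma voom (adjusted p = 0.117), length offsets (edgeR adjusted p = 0.149) and no filter (edgeR adjusted p = 0.197). Leaving out any single library other than iron positive 3R gave edgeR adjusted p of 0.121 to 0.217. Nearly all of its signal came from 1 transcript: Gpx4-202 took 94.0% of the estimated counts of the gene, Gpx4-201 2.41% and Gpx4-207 2.35%.

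Chac1 (chr2:119351229-119354381, plus strand) encodes a gamma-glutamylcyclotransferase that degrades glutathione and is induced by the transcription factor ATF4. It was the rarest of the 10, with 7 to 75 estimated counts per library. Iron positive 3L, 3R, 4R and 5L had 1.05, 3.78, 1.92 and 1.15 CPM, against 1.28, 2.15, 1.21 and 0.304 CPM in the iron negative libraries. The highest level of each fraction was that of tag 3R, where the endothelial and fibroblast sums were also highest in each fraction; their part in the result was not tested. The log2 fold change of 0.68 ± 0.59 (SE) had the widest 95% interval of the 10, from -0.67 to 2.02 (edgeR adjusted p = 0.477).

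The promoter of Chac1 is shown because it alone among the members with a promoter window held a composite site for CHOP and ATF4, the stress-response pair that Chac1 is known to answer to. Windows of 300 bases, from 250 before to 50 after the start, were available from RefSeq (GRCm38.p6) for 9 of the 10 genes. In the window at chr2:119350992-119351291 (plus strand), the match is in capitals.
Chac1 promoter: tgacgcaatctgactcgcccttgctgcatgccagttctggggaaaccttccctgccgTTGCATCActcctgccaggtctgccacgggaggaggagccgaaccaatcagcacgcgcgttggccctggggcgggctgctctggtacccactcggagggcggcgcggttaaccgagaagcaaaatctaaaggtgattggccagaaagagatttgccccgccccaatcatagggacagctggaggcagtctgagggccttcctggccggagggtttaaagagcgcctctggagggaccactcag
The motif searched was TGATGNAA on both strands, and its only match among the members' 12 windows starts at base 58 of this window on the minus strand. It is found in 3.97% of the 32851 windows of all genes. TGACNNNGC, the core of the antioxidant response element read by NRF2, was found in 0 of the members' windows and in 12.4% of all windows. A match in a window is a description of letters, and the search says nothing on binding.

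Slc3a2 (chr19:8706882-8723369, minus strand), the heavy chain CD98 shared by several amino acid transporters, varied more between tags than between fractions. It had 472.5, 291.2, 353.6 and 336.2 CPM in iron positive 3L, 3R, 4R and 5L, against 489.9, 359.8, 314.3 and 343.5 CPM in iron negative libraries. Tag 3L was highest in both fractions. Its log2 fold change was -0.05 ± 0.18 (SE; 95% interval -0.46 to 0.36, edgeR adjusted p = 0.873).

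Aifm2 (chr10:61715263-61739260, plus strand), the ubiquinone reductase FSP1, had the largest difference of the 10 apart from Chac1. Iron positive 3L, 3R, 4R and 5L had 20.8, 11.5, 21.8 and 14.7 CPM, against 11.9, 10.9, 10.97 and 11.8 CPM in the iron negative libraries. The iron negative libraries were nearly equal (11.4 ± 0.53 CPM, SD, n = 4), whereas the iron positive ones were spread (17.2 ± 4.93 CPM, SD, n = 4): 3L and 4R were high, and 3R lay within the iron negative range. The log2 fold change was 0.60 ± 0.19 (SE; 95% interval 0.16 to 1.04). It did not pass in the fit on fraction alone (edgeR adjusted p = 0.0747) and passed with the tag as a block (0.56, edgeR adjusted p = 0.0489), a fit in which 12.8% of all genes were called higher and 9.39% lower. Without iron positive 3R the log2 fold change was 0.75 (edgeR adjusted p = 0.0190). It was 0.49 without iron positive 3L (edgeR adjusted p = 0.145) and 0.46 without iron positive 4R (edgeR adjusted p = 0.188). Leaving out an iron negative library gave edgeR adjusted p of 0.142 to 0.157. Aifm2 passed with DESeq2 (0.60, adjusted p = 0.0292) and did not pass with limma voom (adjusted p = 0.128) or length offsets (edgeR adjusted p = 0.159).

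The 2 libraries high in Aifm2 were also the 2 highest in neutrophil markers. The 6 markers summed to 552.5, 208.8, 643.0 and 202.6 CPM in iron positive 3L, 3R, 4R and 5L, against 112.3, 106.9, 119.4 and 91.0 CPM in iron negative libraries. Of these markers 3 of 6 were called higher and 0 lower, and their part in the Aifm2 difference was not tested. The lowest Gpx4 and Aifm2 levels of the iron positive fraction were both at tag 3R, where the macrophage sum was 26930 CPM.

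**Figure D2:**
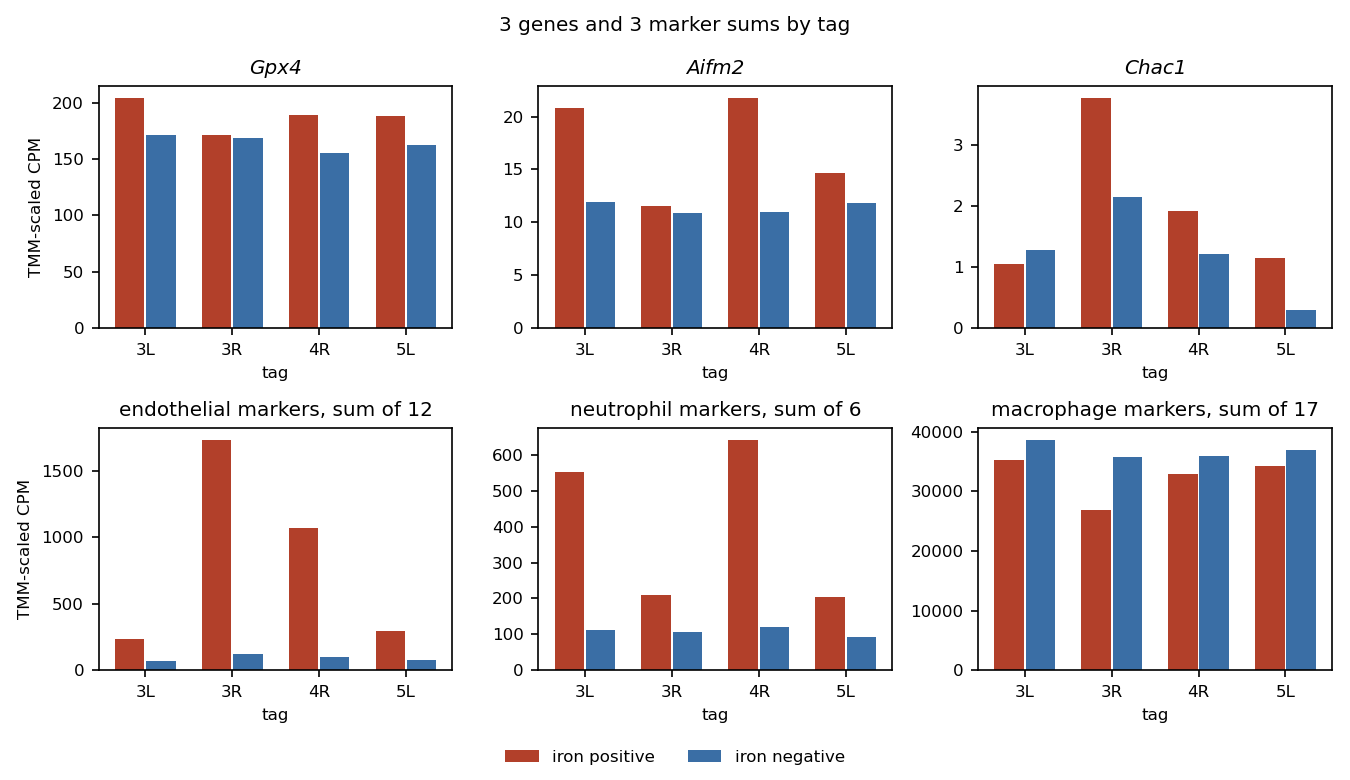
Levels of Gpx4, Aifm2 and Chac1 (upper row) and summed levels of endothelial, neutrophil and macrophage markers (lower row) by tag, in TMM-scaled CPM, with iron positive (red) left of iron negative (blue) bars and 1 library per bar. Aifm2 and the neutrophil sum were highest in iron positive 4R and 3L, and Chac1 and the endothelial sum in iron positive 3R.

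Gch1 (chr14:47153895-47189413, minus strand), the rate-limiting enzyme of tetrahydrobiopterin synthesis, was higher in 4 of 4 pairs by small and similar amounts, 0.07 to 0.27 log2 units. It had 34.6, 24.04, 26.9 and 29.8 CPM in iron positive 3L, 3R, 4R and 5L, against 33.0, 22.2, 22.3 and 28.1 CPM in iron negative libraries. The groups overlapped widely because the tags differed from each other in both fractions. The log2 fold change was 0.13 ± 0.16 (SE; edgeR adjusted p = 0.626) and 0.13 with the tag as a block (adjusted p = 0.182).

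Dhodh (chr8:109591343-109608673, minus strand), the mitochondrial enzyme of pyrimidine synthesis that passes electrons to ubiquinone, had 11.3, 13.6, 11.3 and 14.0 CPM in iron positive 3L, 3R, 4R and 5L, against 14.98, 13.2, 12.1 and 15.3 CPM in iron negative libraries. The groups overlapped, with 1 of 4 pairs higher in the iron positive fraction. Its log2 fold change was -0.15 ± 0.12 (SE; edgeR adjusted p = 0.440).

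Acsl4 (chrX:142317993-142390535, minus strand) activates arachidonic and adrenic acid, the substrates whose oxidation marks ferroptosis. It had 80.5, 69.5, 66.1 and 74.1 CPM in iron positive 3L, 3R, 4R and 5L, against 81.2, 70.7, 74.0 and 69.7 CPM in iron negative libraries. The groups overlapped over nearly their whole range. Acsl4's log2 fold change of -0.03 ± 0.08 (SE) had a 95% interval of -0.20 to 0.15 (edgeR adjusted p = 0.844).

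Lpcat3 (chr6:124663027-124704418, plus strand), the acyltransferase that places such acyl chains into lysophospholipids, had 39.2, 35.03, 40.4 and 34.3 CPM in iron positive 3L, 3R, 4R and 5L, against 34.5, 35.5, 39.0 and 36.1 CPM in iron negative libraries. It was higher in 2 of 4 pairs. Its log2 fold change was 0.04 ± 0.07 (SE; 95% interval -0.13 to 0.20, edgeR adjusted p = 0.766), and both enzymes of polyunsaturated lipid loading had intervals within about 0.2 log2 units of 0.

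Acsl3 (chr1:78657825-78707743, plus strand), whose product activates monounsaturated fatty acids that are poor substrates of peroxidation, was lower in 4 of 4 pairs. It had 16.6, 15.3, 12.7 and 14.4 CPM in iron positive 3L, 3R, 4R and 5L, against 21.6, 15.7, 15.99 and 15.7 CPM in iron negative libraries. Only iron positive 3L lay within the iron negative range, and iron negative 3L lay far above the other libraries of its fraction. The log2 fold change was -0.23 ± 0.13 (SE; 95% interval -0.53 to 0.07, edgeR adjusted p = 0.279). Its size depended on the processing. It was -0.42 with length offsets (edgeR adjusted p = 0.0950) and -0.33 on log2(TPM + 1) values (limma adjusted p = 0.127). With macrophage scaling it was -0.02 (edgeR adjusted p = 0.943).

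Sat1 (chrX:155213132-155216449, minus strand), the spermidine and spermine acetyltransferase and the most abundant of the 10, had 933.5, 886.9, 810.1 and 985.9 CPM in iron positive 3L, 3R, 4R and 5L, against 1013, 857.8, 930.9 and 1029 CPM in iron negative libraries. The groups overlapped. Its log2 fold change was -0.08 ± 0.09 (SE; 95% interval -0.29 to 0.12, edgeR adjusted p = 0.580).

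In CPM, 0 of the 10 genes had groups that did not overlap, while 11.2% of all genes tested were higher and 10.3% lower without overlap. Of the 10, 3 were higher and 1 lower in 4 of 4 pairs. The share of all genes with 4 pairs in 1 direction was not computed, so these counts have no background beside them. Of the genes with a mean of at least 5 CPM, those closest to Chac1 in profile included Matn2 and Abcb1a, at Euclidean distances of 1.48 and 1.59 between log2 CPM profiles centred over the 8 libraries. For Sat1 they were CT030661.1, Rsrc2 and Srebf1, at distances of 0.071, 0.087 and 0.128. These distances describe 8 libraries that share tags.

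The sign of the small differences depended on the scaling. When libraries were scaled to the summed counts of the 17 macrophage markers, the median log2 fold change of all genes moved to 0.20 (12.3% of genes higher and 0.195% lower), and Slc3a2, Dhodh, Acsl4 and Sat1 took positive values. Relative to that median the members kept their order, with Chac1 at 0.75, Aifm2 at 0.58, Gpx4 at 0.19, Gch1 at 0.12, Lpcat3 at 0.04, Acsl4 at -0.025, Slc3a2 at -0.06, Sat1 at -0.08, Dhodh at -0.13 and Acsl3 at -0.22. Under this scaling Gpx4 (0.39, edgeR adjusted p = 0.0154) and Aifm2 (0.77, edgeR adjusted p = 0.0195) passed.

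**Figure D3:**
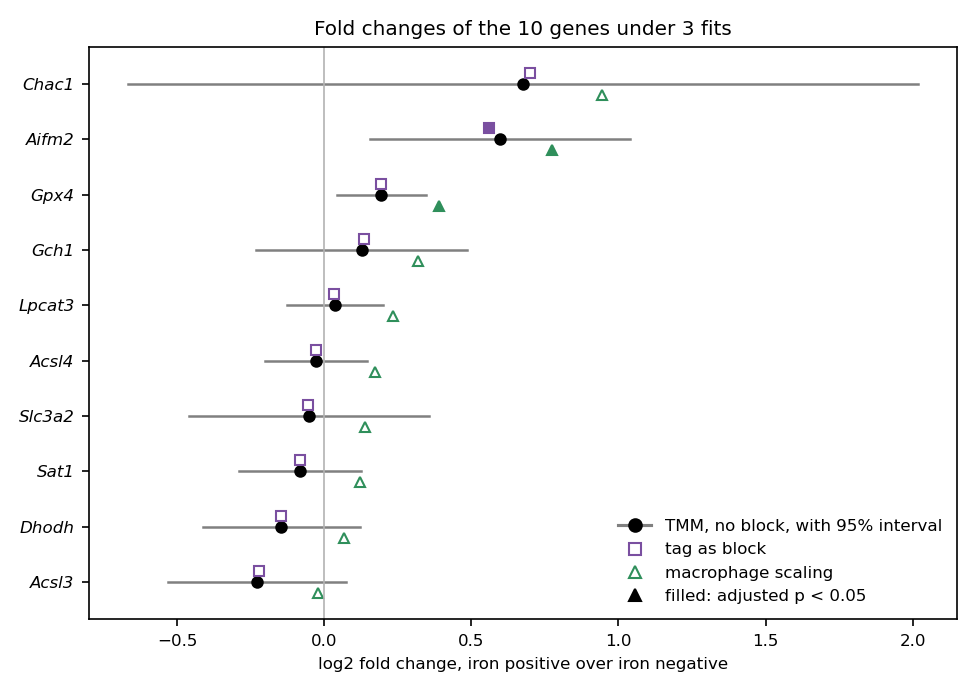
Log2 fold change of iron positive over iron negative libraries for the 10 genes, with TMM scaling and no block (black, 95% interval), with the tag as a block (squares) and with macrophage scaling (triangles), filled where the adjusted p was under 0.05. Aifm2 passed with the block and with macrophage scaling, and Gpx4 with macrophage scaling, which places Slc3a2, Dhodh, Acsl4 and Sat1 on the positive side.

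Several of the genes make more than 1 transcript, and their shares were compared with exact permutation tests of 4 against 4 libraries. Of the 14 transcripts from 5 genes with a mean share of at least 10% in a fraction, 0 reached an unadjusted p under 0.05, and the smallest adjusted p was 0.733, the smallest possible p of the design being 0.0286. Acsl3-205, a coding transcript, took 52.3%, 76.5%, 51.1% and 54.3% of the gene in iron positive 3L, 3R, 4R and 5L, against 77.7%, 76.3%, 74.97% and 61.6% in iron negative libraries (exact permutation p = 0.114). The iron positive 3R library lay with the iron negative ones. Acsl3-201, the next most abundant coding transcript, took 29.2% ± 7.79 in iron positive and 20.5% ± 2.82 in iron negative libraries (SD, n = 4 each, two-sided exact permutation p = 0.0571).

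The coding transcript Sat1-201 held only a part of the counts of Sat1, 43.5% ± 4.95 in iron positive and 44.4% ± 7.86 in iron negative libraries (SD, n = 4 each). Transcripts that keep an intron, chiefly Sat1-205 and Sat1-206, held 50.9% ± 3.96 of the counts in iron positive and 47.0% ± 7.84 in iron negative libraries. As background, Sat1 is also spliced with an extra exon that introduces a stop codon and sends the transcript to nonsense-mediated decay, and polyamines favour skipping of that exon. It is annotated in Sat1-207, spans 110 bases at chrX:155215121-155215230 (minus strand), and reaches an in-frame stop, shown in capitals, within its first 14 bases.
Sat1-207 exon start: gttacagtctcTAG
Sat1-207 took 3.94%, 4.603%, 4.03% and 6.45% of the gene in iron positive 3L, 3R, 4R and 5L, against 8.15%, 6.51%, 6.92% and 9.01% in iron negative libraries. It was below the 10% minimum and entered only when the minimum was lowered to 5%, where the groups did not overlap and the difference of -2.89 percentage points gave the smallest p of the design (two-sided exact permutation p = 0.0286) but an adjusted p of 0.286.

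Dhodh-206, a transcript of Dhodh that keeps an intron, also entered at the 5% minimum, with a mean of only 19.04 estimated counts per library. It took 9.89%, 10.8%, 10.8% and 5.91% of the gene in iron positive 3L, 3R, 4R and 5L, against 4.46%, 5.79%, 4.81% and 2.93% in iron negative libraries (two-sided exact permutation p = 0.0286, adjusted p = 0.286). The iron positive 5L library lay only just above the highest iron negative one. The coding transcript Dhodh-201 took 70.4% ± 4.25 in iron positive and 73.0% ± 4.43 in iron negative libraries (SD, n = 4 each). Shares come from the authors' assignment of reads among overlapping transcripts and carry its uncertainty, which the tables do not give.

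**Figure D4:**
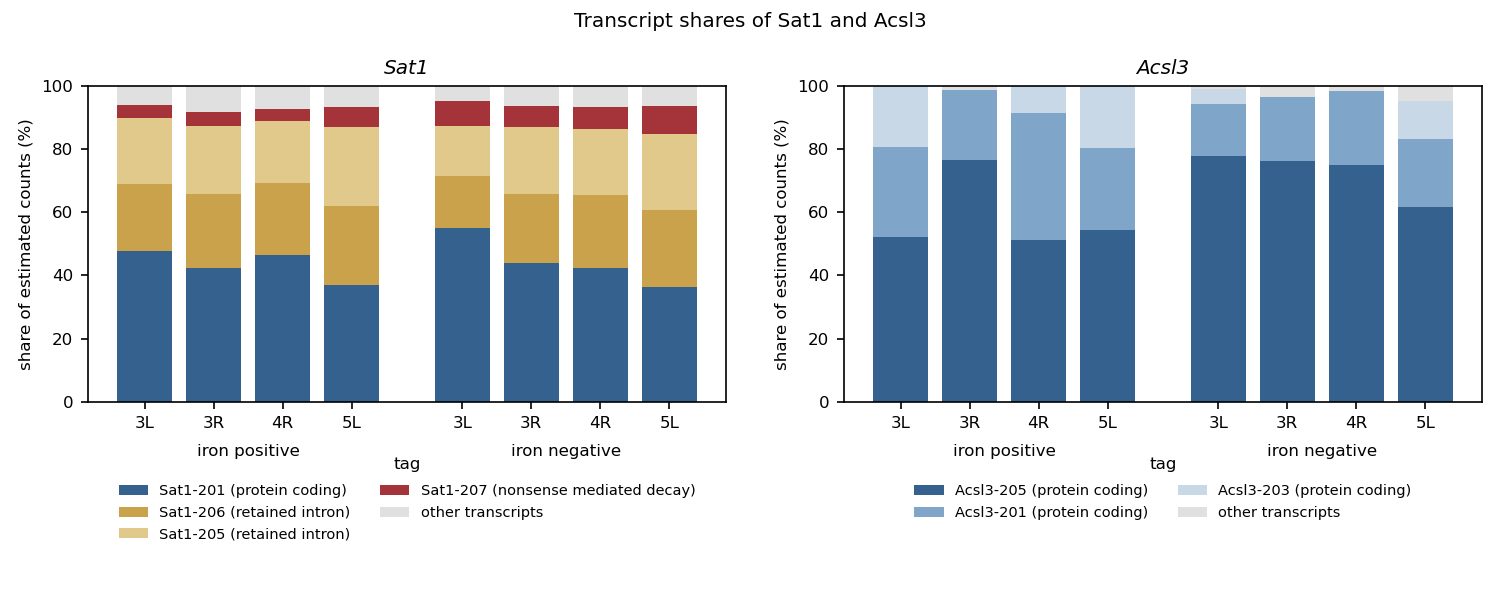
Share of the estimated counts of Sat1 and of Acsl3 taken by their main transcripts, in percent, in each iron positive library (left 4 bars) and iron negative library (right 4 bars). Sat1-207 is narrower in all 4 iron positive bars, and Acsl3-205 is at 51.1% to 54.3% in 3 of them and at 76.5% in iron positive 3R.

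Around the 10 genes, 98 further genes of the same and adjoining pathways were examined in 12 lists, and 92 had enough counts to test. Of these, 7 (7.61%) were higher and 8 (8.70%) lower in iron positive libraries, beside 8.49% and 5.21% of all genes, and their median log2 fold change was -0.03. With the tag as a block 13 were higher and 13 lower, beside 12.8% and 9.39% of all genes in that fit. With macrophage scaling 16 were higher and 0 of 92 lower by adjusted p (edgeR), beside 12.3% and 0.195% of all genes. Under that scaling 4 were lower at an unadjusted p under 0.05, and DESeq2 with its own scaling called 9 lower. The calls of all genes also shifted with scaling, as 1133 were higher and 695 lower with TMM, 1172 and 362 with library totals, and 1635 and 26 with macrophage scaling. The number of calls changed most when an iron negative library was left out. Without iron negative 3L, 3R or 4R, 0 of all genes passed (smallest edgeR adjusted p 0.0619, 0.0511 and 0.0630). At an unadjusted p under 0.05 there were then 2066, 2145 and 2103 genes higher and 1490, 1452 and 1601 lower. When iron negative 5L was omitted, 26 genes were called higher and 12 lower, and leaving out iron positive 4R gave 399 and 214, among them 0 and 4 of the pathway genes.

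The glutathione genes near Gpx4 and Chac1 held the 2 highest log2 fold changes of the lists, those of Gclm and Gsr. Of 9 tested, 2 rose and 0 fell, with a median log2 fold change of 0.358, beside 0.359 for the lipid oxidation list. Gclm, the modifier subunit of glutamate-cysteine ligase, the first enzyme of glutathione synthesis, averaged 130.8 ± 84.6 CPM in iron positive and 28.1 ± 0.81 CPM in iron negative libraries (log2 fold change 2.22 ± 0.44 SE, edgeR adjusted p = 0.0199). Gsr, which reduces oxidised glutathione, averaged 135.1 ± 80.6 CPM in iron positive and 33.0 ± 5.402 CPM in iron negative libraries (2.03 ± 0.42 SE, edgeR adjusted p = 0.0209). Both were highest in iron positive 3L and 4R, the libraries highest in Aifm2 and in neutrophil markers (552.5 and 643.0 CPM, beside 208.8 and 202.6 CPM in iron positive 3R and 5L). The part of those markers in the Gclm and Gsr differences was not tested.

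Of the 5 partners and relatives of Slc3a2 tested, 0 passed (edgeR; 1 was higher at an unadjusted p under 0.05, 1 with the tag as a block and 1 with DESeq2). Slc7a8 and Slc7a7, the light chains with the highest TPM, had log2 fold changes of -0.12 (edgeR adjusted p = 0.492) and -0.06 (edgeR adjusted p = 0.516), and with macrophage scaling they were at -0.13 and -0.06 relative to the median of all genes. Slc7a11, named after its values were seen, is the light chain that pairs with SLC3A2 to import cystine. It had 122.1, 30.3, 88.9 and 48.1 CPM in iron positive 3L, 3R, 4R and 5L, against 39.0, 21.2, 22.2 and 13.7 CPM in iron negative libraries, higher in 4 of 4 pairs. Its log2 fold change of 1.59 ± 0.46 (SE) gave an edgeR adjusted p of 0.0542, and 0.00662 with the tag as a block.

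Among 10 genes for selenoprotein synthesis and other peroxidases, 1 rose and 1 fell (median -0.01). Gpx3, a secreted glutathione peroxidase, averaged 38.7 ± 8.63 CPM in iron positive and 25.4 ± 1.34 CPM in iron negative libraries (log2 fold change 0.61 ± 0.15 SE, edgeR adjusted p = 0.0315). Eefsec, the elongation factor that brings selenocysteine tRNA to the TGA codons printed above, averaged 12.9 ± 1.29 CPM in iron positive and 17.5 ± 1.35 CPM in iron negative libraries (-0.44 ± 0.10 SE, edgeR adjusted p = 0.0260). Gpx1, named after its values were seen, had a log2 fold change of -0.11 (edgeR adjusted p = 0.453), and Txnrd1, likewise, 0.80 (edgeR adjusted p = 0.0796, and 0.0284 with the tag as a block). The block raised the calls of this list to 3 higher and 1 lower, and those of all genes to 12.8% higher and 9.39% lower. The third higher gene was the peroxiredoxin gene Prdx6 (0.84, edgeR adjusted p = 0.0334 with and 0.0892 without the block).

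The lists around the radical-trapping members had few calls. Of 12 ubiquinone genes, 1 rose and 0 fell (median 0.01): Nqo1, a quinone reductase, at 1.29 ± 0.45 CPM in iron positive and 0.502 ± 0.127 CPM in iron negative libraries (log2 fold change 1.35 ± 0.34 SE, edgeR adjusted p = 0.0362). Nqo1 had only 9 to 41 estimated counts per library. Of 4 tetrahydrobiopterin genes, 0 passed (edgeR; 0 at an unadjusted p under 0.05 and 0 with DESeq2), and Spr, which makes tetrahydrobiopterin, and Qdpr, which recycles it, both had -0.09 (edgeR adjusted p = 0.425 and 0.423), and both were at -0.08 relative to the median of all genes with macrophage scaling. Of 6 pyrimidine genes, 0 rose and 1 fell (median -0.01): Umps, which acts after DHODH to make UMP, at 49.6 ± 6.91 CPM in iron positive and 70.5 ± 5.53 CPM in iron negative libraries (-0.51 ± 0.11 SE, edgeR adjusted p = 0.0218). In the blocked fit Cad, which catalyses the first steps of the pathway, also fell (-0.26, edgeR adjusted p = 0.0459, and 0.263 without the block).

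Of 8 acyl-CoA synthetases and lysophospholipid acyltransferases tested, 0 rose and 3 fell with TMM scaling (median -0.20), and 0 fell with macrophage scaling. Under macrophage scaling 0.195% of all genes were called lower. Lpcat2 and Lpcat1 stayed negative under it, at -0.43 and -0.27. Relative to the median of all genes they were at -0.62 and -0.46. The acyltransferases Lpcat4 (log2 fold change 0.007, edgeR adjusted p = 0.986) and Mboat1 (-0.13, edgeR adjusted p = 0.713), named after their values were seen, did not pass. Lpcat2, which makes platelet-activating factor and membrane phosphatidylcholine, had 256.7, 289.8, 216.3 and 312.9 CPM in iron positive 3L, 3R, 4R and 5L, against 433.1, 436.7, 402.6 and 398.5 CPM in iron negative libraries. All iron positive libraries lay below all iron negative ones (log2 fold change -0.64 ± 0.11 SE, edgeR adjusted p = 0.0176). Lpcat1, which favours saturated acyl chains, averaged 72.5 ± 11.8 CPM in iron positive and 101.1 ± 6.502 CPM in iron negative libraries (-0.48 ± 0.11 SE, edgeR adjusted p = 0.0297). Mboat7, which adds arachidonate to lysophosphatidylinositol, averaged 57.0 ± 3.13 CPM in iron positive and 65.1 ± 1.08 CPM in iron negative libraries (-0.19 ± 0.05 SE, edgeR adjusted p = 0.0421), and with macrophage scaling it was at 0.004, which is -0.19 relative to the median of all genes under that scaling. The macrophage sum was lower in the iron positive library of each tag, and its part in these results was not tested.

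Of 5 desaturases and elongases, 1 rose and 1 fell (median 0.01). Fads1, a desaturase on the route to arachidonic acid, averaged 141.5 ± 10.8 CPM in iron positive and 201.1 ± 10.5 CPM in iron negative libraries (log2 fold change -0.51 ± 0.07 SE, edgeR adjusted p = 0.0172). Scd2, a stearoyl-CoA desaturase that makes monounsaturated fatty acids, averaged 132.2 ± 26.3 CPM in iron positive and 92.4 ± 9.59 CPM in iron negative libraries (0.52 ± 0.14 SE, edgeR adjusted p = 0.0463), and its groups overlapped. Of 4 ether lipid genes, 0 rose and 1 fell (median -0.19): Agps, which forms the ether bond, at 159.7 ± 20.02 CPM in iron positive and 198.8 ± 6.73 CPM in iron negative libraries (-0.32 ± 0.09 SE, edgeR adjusted p = 0.04999). Far1, which supplies fatty alcohols for the ether bond, fell only with the tag as a block (-0.26, edgeR adjusted p = 0.0473, and 0.103 without it).

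Of 7 lipid oxidation genes, 0 rose and 1 fell in the fit on fraction alone (median 0.36), and 2 rose and 2 fell with the tag as a block. In the blocked fit 12.8% of all genes were called higher and 9.39% lower. The gene that fell in both fits was Cybb, the catalytic subunit of the phagocyte NADPH oxidase, at 486.0 ± 48.9 CPM in iron positive and 713.0 ± 74.4 CPM in iron negative libraries (-0.55 ± 0.10 SE, edgeR adjusted p = 0.0185). Por, the cytochrome P450 reductase that can feed lipid peroxidation, named after its values were seen, had 244.2, 82.6, 210.3 and 101.0 CPM in iron positive 3L, 3R, 4R and 5L, against 80.7, 77.3, 66.2 and 70.2 CPM in iron negative libraries. These groups did not overlap, iron positive 3L and 4R being the highest, as they were in neutrophil markers, and the log2 fold change of 1.12 ± 0.33 (SE) gave an edgeR adjusted p of 0.0564 without a block on the tag and 0.0442 with it. Named likewise, Alox5, the lipoxygenase of leukotriene synthesis, was higher in 4 of 4 pairs and passed only with the block (log2 fold change 0.67, edgeR adjusted p = 0.0226 with and 0.0851 without it). Ptgs2, the inducible cyclooxygenase, was lower in 4 of 4 pairs and also passed only with the block (-0.24, edgeR adjusted p = 0.0156 with and 0.678 without it).

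Of 12 genes of the ATF4 response, to which Chac1 belongs, 2 rose and 0 fell (median 0.14). Ddit4, an inhibitor of mTORC1 signalling, averaged 146.1 ± 47.9 CPM in iron positive and 66.8 ± 24.2 CPM in iron negative libraries (log2 fold change 1.13 ± 0.30 SE, edgeR adjusted p = 0.0410). Vldlr, a lipoprotein receptor, averaged 1.87 ± 0.75 CPM in iron positive and 0.481 ± 0.233 CPM in iron negative libraries (1.96 ± 0.47 SE, edgeR adjusted p = 0.0301). It had only 5 to 56 estimated counts per library, and its groups overlapped in TPM. Atf4 itself, named after its values were seen, had a log2 fold change of 0.003 (edgeR adjusted p = 0.985). In the blocked fit 3 rose and 1 fell, beside 12.8% and 9.39% of all genes. The stress pseudokinase gene Trib3 (0.80, edgeR adjusted p = 0.0163 with and 0.127 without the block) and the transcription factor gene Atf3 (-0.45, edgeR adjusted p = 0.00979 with and 0.210 without it) were added to the calls. Atf3 is also on the list of immediate early and heat shock genes, whose sum was lower in the iron positive library of each tag, at 19320 to 34230 CPM against 28270 to 44350 CPM in iron negative libraries. The part of these genes in the Atf3 and Ptgs2 results was not tested.

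Of 10 polyamine genes around Sat1, 0 passed (edgeR; 1 higher and 1 lower at an unadjusted p under 0.05, 0 with DESeq2), and their median log2 fold change was -0.05. Oaz1, the antizyme that targets ornithine decarboxylase for degradation, had a log2 fold change of -0.02 (edgeR adjusted p = 0.922), which was positive with library totals and -0.02 relative to the median of all genes with macrophage scaling. Odc1, ornithine decarboxylase, had -0.28 ± 0.33 (SE, edgeR adjusted p = 0.616) and was lower in 4 of 4 pairs, so that it passed with the tag as a block (adjusted p = 0.0229).

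**Figure D5:**
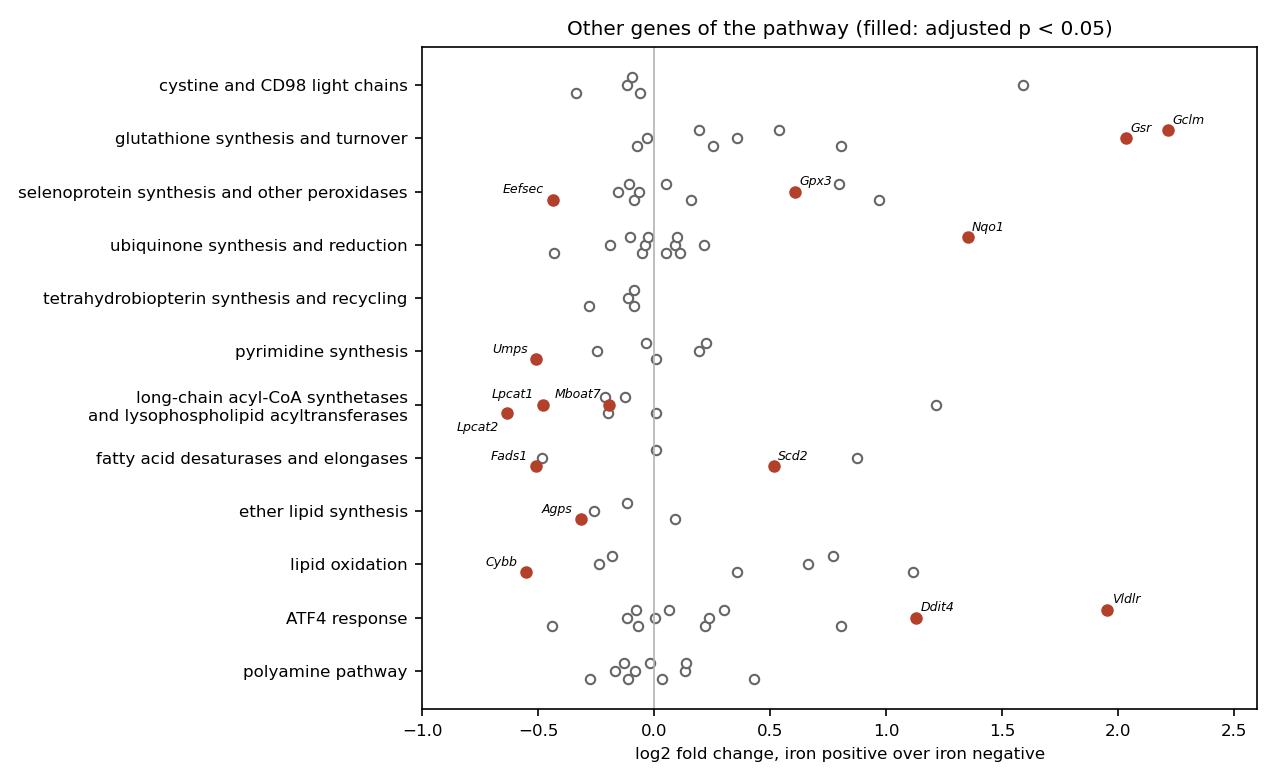
Log2 fold change of iron positive over iron negative libraries for the 92 further pathway genes tested, by list, with TMM scaling, where filled points have an edgeR adjusted p under 0.05. The 2 glutathione genes Gclm and Gsr lie farthest to the right, and Lpcat2 farthest to the left; with macrophage scaling 0 genes were called lower.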

How the data were processed

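Bulk RNA sequencing of 4 iron positive and 4 iron negative libraries was analysed. Per the submitters' processing notes, reads were processed with kallisto 0.46.2 on mm10, with no transcript set named in the sources used here. Per the file headers, each deposited table gives estimated counts, which are not normalized, TPM, which the authors scaled per length and per library, and transcript length and effective length as other values. Replicates were not pooled.

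Transcripts were joined by identifier without version to GENCODE release 21 (GRCm38, the assembly of mm10). Of 119414 transcripts, 2686 did not match, held 0.888% to 0.961% of the counts of a library, and were left out. Estimated counts were summed per gene and rounded. The sums use no strand, so reads of genes overlapping on opposite strands cannot be told apart. After filterByExpr 13343 genes were tested with edgeR 4.0.16 (R 4.3.3), TMM scaling, the quasi-likelihood F-test on fraction alone and Benjamini-Hochberg adjustment. SE is the absolute fold change over the square root of F, and fold changes are iron positive over iron negative. CPM were computed here with TMM factors. Transcript shares were compared by two-sided exact permutation tests. Alternatives used DESeq2 1.42.0, limma 3.58.1, other scalings and filters, and each library left out.

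Equal tags come from the labels. Deviations from the fraction means correlated between libraries of the same tag at 0.530, 0.521, 0.270 and 0.304 (3L, 3R, 4R, 5L), all over 0.1, and the highest correlation with an iron negative library of another tag was 0.131, 0.206, 0.257 and 0.234. By the limit of 0.1 the tags were taken to pair the libraries. The correlations with other tags were over 0.1 as well, so the limit cannot tell pairs from other libraries. The same-tag correlation was the higher at each tag, but by little at 4R (0.270 beside 0.257). Counts of pairs and blocked results depend on this pairing. No 2 libraries of a fraction agreed within counting noise (chi-square per gene 39.9 to 101 in iron positive and 8.96 to 25.4 in iron negative libraries). On simulated data for this comparison (13192 genes), edgeR recovered 32 of 50 genes set to differ 2-fold and 41 of 50 set to differ 4-fold, and called 10 of 12992 genes with no set difference. The simulated counts had the same dispersion in both fractions and no shared tag effect, and only 200 genes were set to differ. The real libraries differ in these respects, so these figures do not measure recovery in them.

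All members are named. Of each list up to 3 genes with the smallest adjusted p among those past the threshold are named, or the 2 with the highest mean TPM where none passed. Outside this rule, Prdx6, Cad, Far1, Ptgs2, Trib3 and Atf3 were named after their values were seen, because the blocked fit called them. Other genes outside it are marked in the text as named after their values were seen. For Chac1 and Sat1 the 3 genes closest in profile were sought, of which 1 is not reported here. Members, lists and this rule were chosen with earlier results of these data known. Sequences are from GENCODE and RefSeq. Of marker lists not described above, summed levels were 90.5 to 733.4 CPM in iron positive and 25.0 to 54.6 CPM in iron negative libraries for pericytes and smooth muscle, and 18.3 to 54.9 against 2.91 to 5.02 CPM for skeletal muscle. They were 19.4 to 25.7 against 31.6 to 47.1 CPM for T and NK cells, 25.7 to 42.5 against 55.8 to 73.1 CPM for B cells and 41.9 to 211.8 against 11.8 to 60.7 CPM for red cells.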

Additional observations from a re-analysis of the deposited data

Results flagged for a closer look

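Of 90 groups of 4 libraries examined, 4 held a library that stood apart from the other 3 of its fraction, and chance marks about 1 in 20 such groups. Acsl3-205 took 76.5% of the counts of Acsl3 in iron positive 3R, far above the other iron positive libraries. Acsl3 itself was far higher in iron negative 3L, at 21.6 CPM, than in the other iron negative libraries. The share of Acsl4-202 in Acsl4 was 14.5% in iron negative 3L, below the other iron negative libraries. Eefsec was at 19.5 CPM in iron negative 5L, above the other iron negative libraries.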

How the results depend on the processing

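With the tag as a replicate block, 1 member was higher, 13 pathway genes were higher and 13 lower, and 1705 and 1253 of all genes were higher and lower; it changed no other call of a member than that of Aifm2. Counts in the same order (members higher, pathway genes higher and lower, all genes higher and lower) were 2, 16, 0, 1635 and 26 with macrophage scaling, 2, 13, 9, 1703 and 1070 with DESeq2, and 0, 0, 5, 189 and 273 with limma voom. They were 0, 4, 4, 386 and 218 on log2(TPM + 1), 1, 4, 4, 547 and 260 on log2(TPM + 0.1), and 1, 8, 4, 1172 and 362 with library totals. With length offsets 407 of all genes were lower. Leaving out 1 library gave 0 to 2 members higher, 0 to 12 pathway genes higher and 0 to 9 lower, and 0 to 1487 of all genes higher and 0 to 979 lower. In settings added after seeing the data, macrophage scaling with the block gave 2, 21, 3, 2689 and 169, tags 3L and 5L alone 0, 0, 0, 321 and 7, and tags 3R and 4R alone 4 pathway genes higher and 443 of all genes lower. No member was called lower in any setting run, and no transcript share passed in any, although the paired test of shares cannot go below 0.125.

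Among the members, log2 fold changes that turned positive with macrophage scaling, and with the block added to it, were 0.137 and 0.141 for Slc3a2, 0.067 and 0.049 for Dhodh, 0.172 and 0.167 for Acsl4, and 0.120 and 0.113 for Sat1. Among the pathway genes named by adjusted p or TPM they were 0.139 and 0.135 for Slc7a7, 0.067 and 0.065 for Slc7a8, 0.113 and 0.109 for Qdpr, 0.113 and 0.106 for Spr, 0.004 and 0.001 for Mboat7, and 0.181 and 0.174 for Oaz1. Other pathway genes with small negative values also turned positive with macrophage scaling, among them Gpx1 and Mboat1, both at 0.083. The median of all genes under that scaling was 0.197. With library totals Acsl4 was at 0.026 and Oaz1 at 0.035, and on either TPM scale Slc3a2 was at 0.003 and Oaz1 at 0.025. With 1 library left out Slc3a2 ranged from -0.211 to 0.102, Acsl4 from -0.087 to 0.023, Lpcat3 from -0.005 to 0.073 and Oaz1 from -0.107 to 0.023. With tags 3L and 5L alone Acsl4 was at 0.027 and Oaz1 at 0.015, and with tags 3R and 4R alone Lpcat3 was at -0.014. The cause was not tested. Of the 15 pathway calls, each was lost in at least 1 setting, in 147 values over all settings. Among the 10 members Chac1 had the fewest counts, at most 75 in a library.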
